A study of Mus musculus with 16 samples.

Results

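The 9 genes described here code for secretoglobins (*Scgb1a1*, *Scgb3a1* and *Scgb3a2*), for mucins (*Muc5b*, *Muc1*, *Muc4* and *Muc16*) and for *Chad* and *Bpifa1*, 2 other secreted proteins that are used as markers of airway secretory cells. ATAC-seq was performed on non-NE and NE small cell lung cancer (SCLC) cells, and the authors deposited the peaks that differed between them. ATAC-seq uses the Tn5 transposase to insert sequencing adaptors into open chromatin, and sites where many reads pile up are accessible. The tumors grew in the lungs of *TKO;Hes1 GFP/+* mice. In these animals an adenovirus that expresses Cre from the CMV promoter, which is not specific to a cell type, deletes *Rb*, *p53* and *p130*, and 1 allele of *Hes1* makes GFP. Mice were young adults at induction, tumors were pooled some months later, and live CD24+ cells without leukocyte, endothelial and erythroid surface markers were sorted by GFP. The non-NE population is GFP high and the NE population GFP neg. Both groups come from mice with the same floxed and reporter alleles, and whether each sorted cell carried the 3 deletions was not tested here. The labels give 16 runs, which are 8 libraries on 2 lanes each, with 4 libraries in each group from 3 mice, 1 of which gave 2 libraries per group.

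A listed peak is called opened where the authors found it more accessible in GFP high cells and closed where it was less accessible. Peaks went to the protein-coding gene whose start site was nearest to their centre (GENCODE basic annotation of mm10), which gave 47 of the 80367 listed peaks to the 9 genes. Of these, 40 were opened and 7 closed, or 85.1% opened (Wilson 95% interval 72.3% to 92.6%), beside 50.8% of all listed peaks. An opened peak lay within 1 kb of the start site in 7 of the 9 genes, beside 26.6% of the 21840 protein-coding genes, and none of the 9 had a closed peak there, beside 8.46%. At least 1 opened peak was assigned to 7 of the 9 genes, beside 52.3% of protein-coding genes, and at least 1 closed peak to 4, beside 42.2%. Opened peaks without a closed one were found for 4 genes (*Scgb3a2*, *Chad*, *Muc1* and *Muc4*), beside 24.6%. The genes without an opened peak were *Bpifa1*, which had no listed peak, and *Muc16*, which had 2 closed peaks and no opened peak. All these values come from a single comparison of the 2 groups, so no value per library can be shown and no test was run.

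Club cells are secretory cells of the conducting airways. They release secretoglobins, small proteins of the airway lining fluid among which SCGB1A1 (CC10) is the classical club cell marker, and they give rise to other airway cells after injury. Mucins are large glycoproteins. MUC5B is secreted and forms mucus that carries particles out of the airway, whereas MUC1, MUC4 and MUC16 span the membrane and coat the apical surface of epithelial cells.

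Sequences are shown for the sites on which the description of these genes turns, on GRCm38 (mm10), in the direction of the gene. The first 4 are the central 300 bp of the opened peak with the highest mean signal of *Scgb1a1*, of *Scgb3a1*, of *Muc1* and, outside its first exon, of *Muc4*. The last 2 are the 250 bases before the start site of *Chad* and of *Muc1* from RefSeq (GRCm38.p6), each of which overlaps opened peaks. Capitals mark exact matches on either strand to the 8 short strings described with the motifs further on, and in the 2 promoters also the string TATAAA.
Scgb1a1 peak, chr19:9107082-9107381, minus strand: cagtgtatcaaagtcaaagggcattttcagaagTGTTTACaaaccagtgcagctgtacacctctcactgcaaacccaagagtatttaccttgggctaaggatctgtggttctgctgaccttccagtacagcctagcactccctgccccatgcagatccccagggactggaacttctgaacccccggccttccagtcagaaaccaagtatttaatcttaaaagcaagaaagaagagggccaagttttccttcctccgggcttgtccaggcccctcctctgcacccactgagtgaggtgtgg
Scgb3a1 peak, chr11:49663263-49663562, plus strand: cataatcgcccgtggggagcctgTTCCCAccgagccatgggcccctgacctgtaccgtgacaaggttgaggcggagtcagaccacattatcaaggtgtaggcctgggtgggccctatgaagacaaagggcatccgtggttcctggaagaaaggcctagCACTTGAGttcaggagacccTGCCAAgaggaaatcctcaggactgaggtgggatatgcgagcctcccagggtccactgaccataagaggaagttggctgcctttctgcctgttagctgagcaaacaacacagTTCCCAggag
Muc1 peak, chr3:89227324-89227623, plus strand: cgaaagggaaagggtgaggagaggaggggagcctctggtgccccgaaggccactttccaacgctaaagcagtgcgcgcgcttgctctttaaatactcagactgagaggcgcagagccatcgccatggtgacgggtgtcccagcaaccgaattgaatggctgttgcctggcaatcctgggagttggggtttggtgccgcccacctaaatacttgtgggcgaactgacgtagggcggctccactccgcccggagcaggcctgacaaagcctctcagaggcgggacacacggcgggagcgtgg
Muc4 peak, chr16:32745910-32746209, plus strand: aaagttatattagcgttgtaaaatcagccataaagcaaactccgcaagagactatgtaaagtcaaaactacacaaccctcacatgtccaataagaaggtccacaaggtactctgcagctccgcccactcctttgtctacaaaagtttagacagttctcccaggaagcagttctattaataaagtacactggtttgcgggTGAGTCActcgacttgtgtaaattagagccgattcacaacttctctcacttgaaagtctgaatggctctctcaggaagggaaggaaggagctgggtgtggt
Chad promoter, chr11:94564797-94565046, plus strand: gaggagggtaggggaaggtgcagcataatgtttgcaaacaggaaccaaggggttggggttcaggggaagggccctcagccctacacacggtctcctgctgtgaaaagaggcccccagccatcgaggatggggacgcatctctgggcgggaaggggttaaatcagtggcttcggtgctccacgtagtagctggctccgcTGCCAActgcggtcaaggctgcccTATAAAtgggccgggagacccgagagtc
Muc1 promoter, chr3:89228806-89229055, plus strand: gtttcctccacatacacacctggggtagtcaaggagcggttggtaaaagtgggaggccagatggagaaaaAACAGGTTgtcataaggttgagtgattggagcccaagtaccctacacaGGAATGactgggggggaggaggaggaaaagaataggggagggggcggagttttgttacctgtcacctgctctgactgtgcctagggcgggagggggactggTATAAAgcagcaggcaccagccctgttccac

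In the *Scgb1a1* window the single capital run is a FOX string. The *Scgb3a1* window holds an NKX2 string, an NFI string and 2 RBPJ strings, of which 1 lies close to the start site. The *Muc4* window holds an AP-1 string. The *Muc1* window holds none of the 8 strings and has a GC content of 61.3%, beside 43.7% in the *Muc4* window. The *Muc1* promoter holds a GRHL string and a TEAD string, and the *Chad* promoter holds an NFI string. Both promoters hold TATAAA in the last 50 bases before the start site.

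*Scgb1a1*, the gene of CC10, had the most peaks of the 9 genes, 12 opened and 3 closed. With this assignment 2.46% of all protein-coding genes had as many opened peaks, beside 7.32% for the count of *Chad* and of *Muc4*, 12.4% for *Muc1*, 16.7% for *Muc5b*, 23.2% for *Scgb3a2* and 33.4% for *Scgb3a1*. Of the 12 opened peaks 3 lay inside the neighbour *Ahnak*, and 7 lay within the gene body and 10 kb around it. The gene lies on chromosome 19 at 9083636 to 9087958 on the minus strand. Its promoter carried 2 opened peaks separated by 68 bp. The first (chr19:9087782-9088374) was centred 120 bp upstream of the start site, with an authors' mean of 263 normalized counts, the average of a peak's reads over all samples of the comparison, scaled by size factors. The second was centred 653 bp upstream, with a mean of 68.4.

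The *Scgb1a1* peak with the highest mean lay in intergenic sequence 19.3 kb upstream of the start site (chr19:9106771-9107692), with a mean of 632. Only 1.25% of all opened peaks in the lists had a mean as high, and the next highest mean among the 9 genes was 334. It was also the widest *Scgb1a1* peak, at 922 bp. A smaller opened peak lay beside it, 18.3 kb upstream, with a mean of 47.7. Between this pair and the promoter were opened peaks 2.72 kb upstream, with a mean of 226, and 6.14 kb upstream, with a mean of 14.7, the lowest of the gene.

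Downstream of *Scgb1a1*, 3 opened peaks formed a cluster just beyond the last exon, with gaps of 93 bp and 79 bp between neighbours. The nearest of them began 374 bp beyond the gene's end (chr19:9082510-9083262) and had a mean of 334, above that of the promoter peaks. The next 2 had means of 202 and 74.4. Thus 9 opened peaks and no closed peak flanked the gene from 6.36 kb downstream to 19.3 kb upstream of its start site.

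The other 6 *Scgb1a1* peaks lay further downstream, in introns of *Ahnak*, a large gene on the opposite strand whose own start site is more distant. These 6 comprised 3 opened and all 3 closed peaks. The closed peaks were centred 14.1 kb, 21.6 kb and 22.0 kb from the *Scgb1a1* start site, with means of 61.0, 81.8 and 109. The closed peak with the highest mean (chr19:9065736-9066170) was separated by 57 bp from the next closed peak. The opened peaks in *Ahnak* lay beyond them at 26.5 kb, 27.7 kb and 39.98 kb, with means of 119, 61.6 and 50.5. Whether any of these 6 acts on *Scgb1a1* or on *Ahnak* cannot be read from distance.

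*Scgb3a1*, a secretoglobin of the larger airways, had 2 opened peaks and 1 closed peak. It occupies positions 49663610 to 49665118 of chromosome 11, on the plus strand. The promoter peak (chr11:49663210-49663615) was centred 198 bp upstream of the start site, reached into the first exon and had a mean of 80.5. The second opened peak lay 5.35 kb upstream, with a mean of 43.8. The closed peak lay 20.5 kb upstream in an intron of *Flt4*, with a mean of 50.3. These means were far below that of the strongest *Scgb1a1* peak.

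*Scgb3a2*, a secretoglobin of the small airways, had 3 opened peaks and no closed peak. It spans 43764289 to 43767399 of chromosome 18, on the plus strand. The peak at the promoter (chr18:43764009-43764389) was centred 90 bp upstream of the nearer of 2 start sites and had a mean of 85.4. A peak 5.01 kb upstream (chr18:43758819-43759743) was stronger, with a mean of 282, and was the widest of all 47 peaks, at 925 bp. It is nearer to the start of the RNA gene *Gm23894*, 1870 bp away, and 2 opened peaks remained with *Scgb3a2* where start sites of all gene types were used. The third lay 4.29 kb downstream, 1178 bp beyond the gene's end, with a mean of only 6.17.

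Each of the 3 secretoglobin genes thus carried opened peaks at the promoter. In *Scgb1a1* the highest mean was at a site away from it, as in *Scgb3a2* if the peak near *Gm23894* is counted with the gene, and in *Scgb3a1* it was at the promoter. All 4 closed peaks assigned to secretoglobins lay inside the neighbouring genes *Ahnak* and *Flt4*. Outside these 2 genes the secretoglobins had 14 peaks, all of them opened. These 2 genes were singled out because they hold the closed peaks, so the opened remainder follows from that choice. It also leaves out 3 opened peaks inside *Ahnak*.

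**Figure D1:**
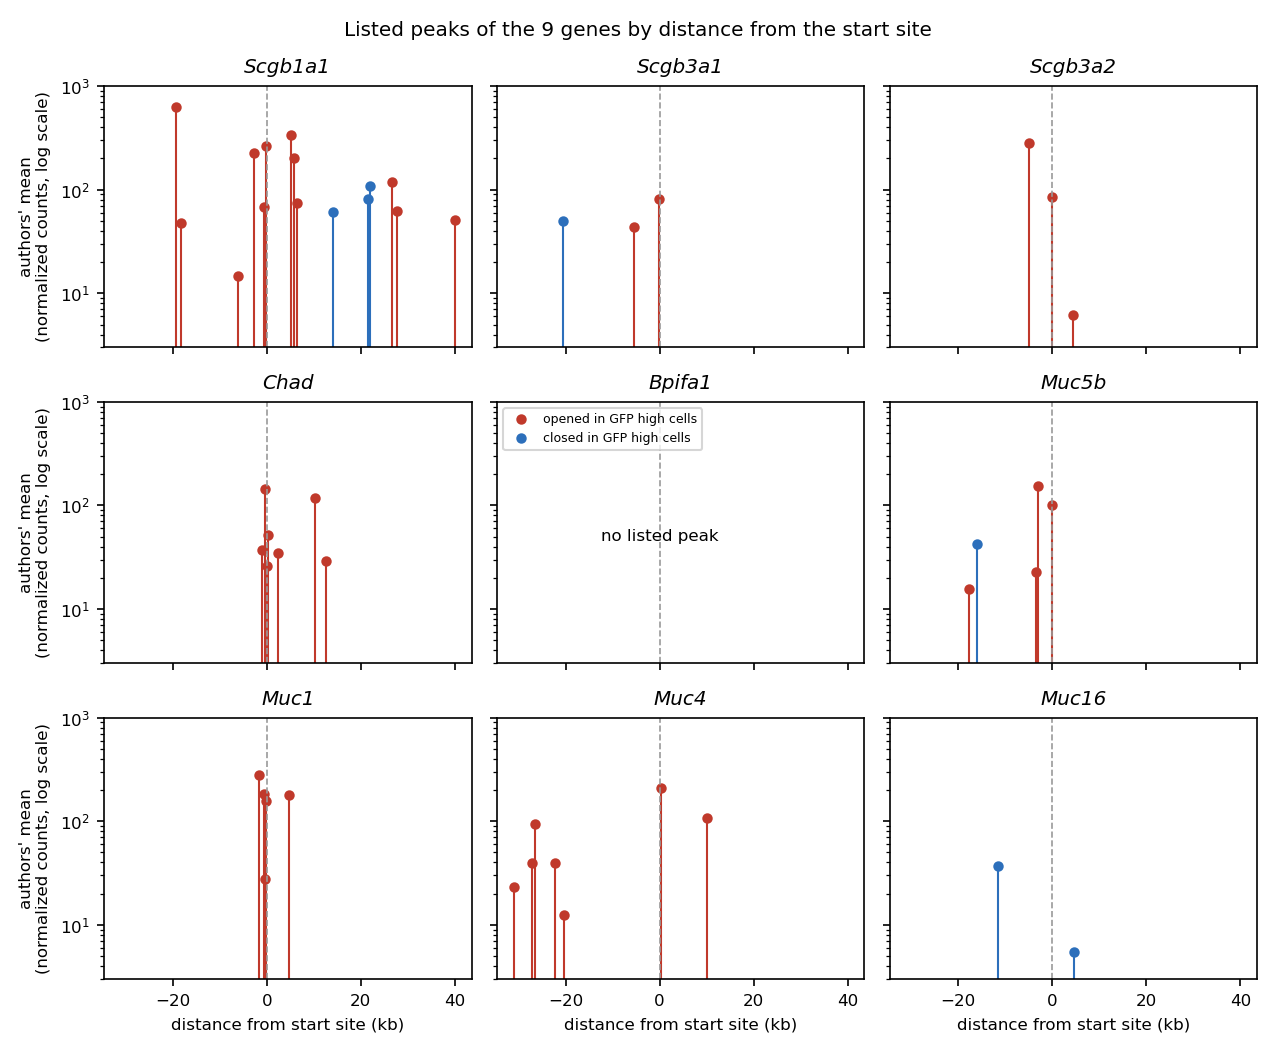
Each listed peak of the 9 genes is drawn as a stem at its distance from the start site (x axis, kb, positive downstream) with the authors' mean over all samples (y axis, normalized counts, log scale), red for opened and blue for closed in GFP high cells. There are 7 panels with a red stem at the dashed line that marks the start site, Muc16 has 2 blue stems alone and Bpifa1 is empty.

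*Chad* codes for chondroadherin, a leucine-rich matrix protein that binds collagen and is best known from cartilage. It had 7 opened peaks and no closed peak. The gene lies on chromosome 11 at 94565047 to 94569127 on the plus strand, within an intron of *Acsf2* on the opposite strand. All 7 peaks thus lay inside *Acsf2*, and which of the 2 genes they act on cannot be read from distance. Of the 7 peaks, 3 lay within 1 kb of the start site. The strongest (chr11:94564435-94564948) was centred 356 bp upstream, with a mean of 144. The other 2 lay in the first exon, 15 bp and 315 bp downstream, with means of 26.2 and 52.2. A further peak was centred 1092 bp upstream, with a mean of 37.2, and with it 4 opened peaks lined the start of the gene. The remaining peaks lay 2.48 kb downstream in the first intron, with a mean of 34.8, and 10.2 kb and 12.5 kb downstream within *Acsf2*, with means of 118 and 28.8.

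*Bpifa1*, which codes for a secreted surfactant-like defence protein of the upper airways, had no listed peak assigned. Its position is chromosome 2 at 154142880 to 154149219 on the plus strand. The nearest listed peak was 25.3 kb from its start site and was assigned to *Bpifa3*, a gene of the same family. Within 100 kb there were 12 opened peaks and 1 closed peak, all assigned to other genes. Sites that did not pass the authors' limits were not analysed here, so the empty locus does not show whether the *Bpifa1* promoter was accessible.

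*Muc5b*, which codes for the main secreted mucin of the normal airway, had 4 opened peaks and 1 closed peak. The gene lies on chromosome 7 at 141839070 to 141873084 on the plus strand, and all 5 peaks lay at or upstream of its start site. The promoter peak (chr7:141838808-141839117) was centred 108 bp upstream and had a mean of 99.99. The strongest peak lay 2.98 kb upstream (chr7:141835880-141836297), with a mean of 153, beside a small peak 3.49 kb upstream with a mean of 22.9. The closed peak lay 15.9 kb upstream, with a mean of 42.8, and was followed 1532 bp away by the farthest opened peak, with a mean of 15.5. These 2 peaks of opposite direction lay in the sequence between *Muc5b* and *Muc5ac*.

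*Muc1*, which codes for a membrane mucin with a signalling cytoplasmic tail, had 5 opened peaks and no closed peak. It occupies 89229057 to 89233381 of chromosome 3, on the plus strand. There were 3 peaks within 1 kb upstream, centred 74 bp, 382 bp and 663 bp from the start site, with means of 157, 27.6 and 184. The highest mean, 278, was 1.58 kb upstream (chr3:89227283-89227663), where the nearest start site of any gene type was that of *Mir92b*, 275 bp away. The fifth peak began 222 bp beyond the gene's end, with a mean of 180. Of the 5 means 4 were between 157 and 278, and within 100 kb of its start site there were 29 opened peaks and no closed peak.

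*Muc4*, which codes for a membrane mucin that binds the receptor ERBB2, had 7 opened peaks and no closed peak. Its body runs from 32735886 to 32782391 on chromosome 16, on the plus strand. Its strongest peak (chr16:32735971-32736468), with a mean of 211, was centred 333 bp downstream of the start site, in the first exon. A peak in the first intron, 10.2 kb downstream (chr16:32745857-32746262), had a mean of 108. The other 5 formed a distal group 20.3 kb to 31.1 kb upstream, with means between 12.4 and 93.9. This group is nearer to the start of the pseudogene *Gm9556*, and 2 of the 7 peaks remained with *Muc4* where start sites of all gene types were used.

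*Muc16*, which codes for the very large membrane mucin known as CA125, had 2 closed peaks and no opened peak. The gene lies on chromosome 9 at 18495455 to 18674530 on the minus strand. The stronger peak (chr9:18685972-18686400) was 11.7 kb upstream of the outer of its 2 start sites, with a mean of 36.7. The other lay in an intron 4.62 kb from the inner start site, with a mean of only 5.53. Only 1 closed peak was left to *Muc16* within the gene body and 10 kb around it, with start sites of all gene types or with a mean of at least 20 normalized counts, and the stronger peak is nearer to the start of *Gm24546*, 7058 bp away. Within 100 kb there were 5 closed peaks and no opened peak.

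The surroundings of the genes were unlike each other, and these values stand beside the counts above. Among the other listed peaks within 5 Mb of the start site, 78.7% were opened around *Chad*, 72.4% around *Bpifa1*, 72.2% around *Scgb1a1* and 67.7% around *Scgb3a1*. The share was 65.8% around *Muc1*, 61.1% around *Muc4*, 60.7% around *Muc5b* and 48.1% around *Muc16*. It was lowest around *Scgb3a2*, at 40.7% of 378 peaks (Wilson 95% interval 35.9% to 45.8%), where all 3 peaks of the gene were opened. For the other genes with opened peaks, the share of opened peaks in the surroundings was above the 50.8% of the whole list, and its part in their counts was not tested.

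**Figure D2:**
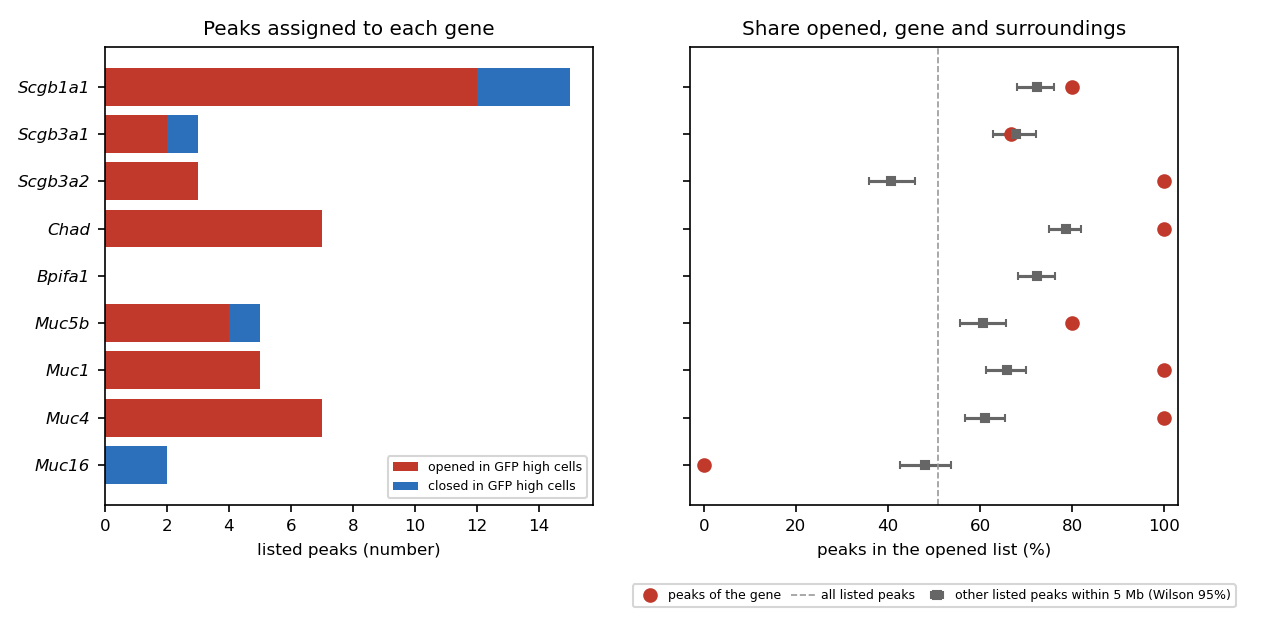
The left panel gives the number of listed peaks of each gene, opened in red and closed in blue. The right panel gives the share of opened peaks (%) for the gene (red) and for other listed peaks within 5 Mb of it (grey, Wilson 95% intervals), with all listed peaks at the dashed line; the grey shares run from 40.7% at Scgb3a2 to 78.7% at Chad.

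Signal and width of the peaks were described next. The median of the authors' mean over the 40 opened peaks was 77.4 normalized counts, beside 40.7 over all opened peaks, and their range was 6.17 to 632. At the promoter the order was the other way: the 12 opened promoter peaks of these genes had a median of 92.7, beside 169 over all 7693 opened promoter peaks. Away from the promoter their median was 56.03, beside 32.5. Of the opened peaks of these genes 30.0% were at promoters, beside 18.8% of all opened peaks. The median width was 348 bp in the opened peaks of these genes and 300 bp in all opened peaks. The authors' mean pools both groups, so it is not a level in GFP high cells.

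Most opened promoter peaks of these genes were poor in CpG, a measure the assignment to genes did not use. The 12 peaks come from 7 genes, and peaks of 1 gene are not independent. CpG dinucleotides are depleted from most of the mouse genome and kept in CpG islands, which cover the start sites of most widely expressed genes. In the central 200 bp of a peak, the ratio of observed to expected CpG had a median of 0.28 in the 12 opened promoter peaks of these genes, beside 0.76 in all opened promoter peaks. The ratio was above 0.6 in 2 of the 12, beside 66.3% of all opened promoter peaks. Both were centred in the first exon of *Chad*, 1 of them 15 bp from the start site, which its window spans. The lowest values were 0.12 at *Scgb3a2* and at *Muc5b* and 0.14 at *Muc4*. GC content followed the same order, with a median of 55.8% beside 65.0%. Beyond 1 kb from protein-coding start sites, the CpG ratio of the 28 opened peaks of these genes had a median of 0.23. This was close to the 0.21 of all such opened peaks. The peak upstream of *Muc1* was highest, at 0.82, and it lies 275 bp from the start of *Mir92b*.

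**Figure D3:**
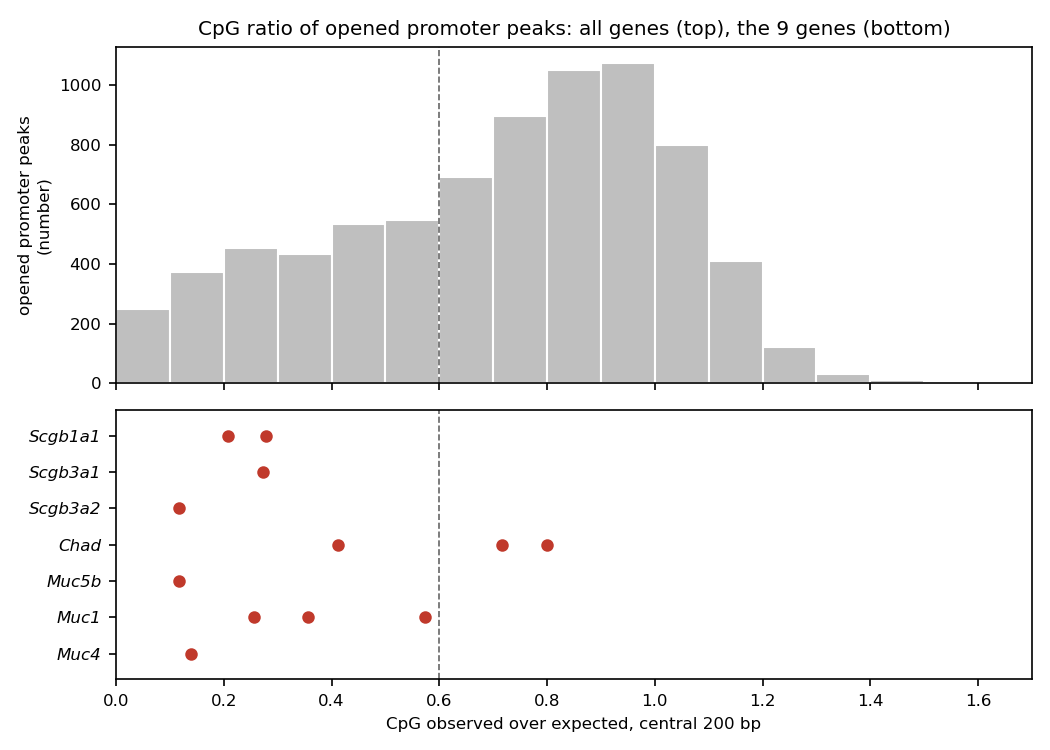
The top panel is a histogram of the ratio of observed to expected CpG in the central 200 bp of all opened promoter peaks, and the bottom panel shows the 12 opened promoter peaks of these genes, 1 point per peak. The dashed line is at 0.6, above which 2 Chad points lie, while the other 10 points lie below it.

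RefSeq promoters were matched for 6 of the 9 genes (*Scgb3a1*, *Chad*, *Bpifa1*, *Muc1*, *Muc4* and *Muc16*). The string TATAAA, read on the gene's strand in the last 50 bases before the start site, was held by 4 of the 6, namely *Chad*, *Bpifa1*, *Muc1* and *Muc4*. It was held by 2.62% of 32544 distinct promoters in the same table. The string was chosen after the *Chad* and *Muc1* sequences had been seen, so the count is a description.

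Short strings of 8 transcription factor families were searched in the central 200 bp of each peak, without mismatches and on both strands. They were TGTTTAC for FOX, CACTNNAG for NKX2, TTGCNNAA for CEBP, CATTCC for TEAD, TGANTCA for AP-1, AACNGGTT for GRHL, TGGGAA for RBPJ and TTGGCA for NFI, and the RBPJ and TEAD strings can overlap. FOXA, NKX2-1 and CEBPA are factors of lung epithelium, RBPJ carries the Notch signal and TEAD factors bind DNA for YAP1. In the 40 opened peaks of these genes the NFI string was the most frequent, in 14 peaks or 35.0%, beside 18.01% of all opened and 13.5% of all closed peaks. The RBPJ string was held by 12 peaks or 30.0%, beside 20.7% and 16.3%, and the NKX2 string by 10 peaks or 25%, beside 17.9% and 16.5%. The TEAD string was held by 8 peaks or 20%, beside 18.1% and 8.77%, and the CEBP string by 7 peaks or 17.5%, beside 12.4% and 8.60%. The AP-1 string was held by 4 peaks or 10%, beside 10.6% and 26.4%. The FOX string was held by 2 peaks and the GRHL string by 1, beside 6.84% and 3.46% of all opened peaks. Over the whole peak the NKX2 string was held by 47.5% of the opened peaks of these genes, beside 26.1% of all opened peaks. It was held by 5 of their 7 closed peaks, beside 21.3% of all closed peaks. Peaks of these genes were wider, with a median of 348 bp beside 300 bp for opened and 355 bp beside 248 bp for closed peaks. In the central 300 bp the NKX2 string was held by 37.5% of their opened and 3 of their 7 closed peaks, beside 24.0% and 22.5%. Peaks of 1 gene are not independent of each other, and no share was tested.

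Among single sites, the opened *Scgb3a1* peak 5.35 kb upstream and the farthest *Chad* peak each held strings of 4 families. The promoter peak of *Muc5b* and the strongest *Muc1* and *Scgb1a1* peaks held none in their central 200 bp. Of the 7 closed peaks, 3 held the NKX2 string, 2 the AP-1 string and 1 the RBPJ string, and the 2 closed peaks of *Muc16* held none. In all RefSeq promoters, over the 250 bases before the start site, the NFI string occurred in 12.3%, the TEAD string in 12.6%, the RBPJ string in 21.6% and the GRHL string in 1.79%.

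**Figure D4:**
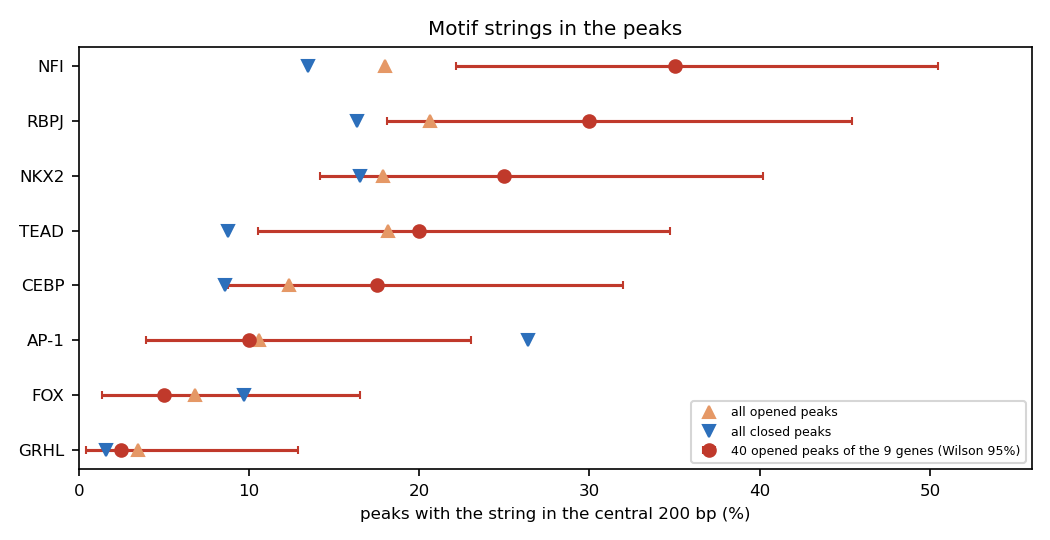
For each of 8 families, the share of peaks (%) with the string in the central 200 bp is given for the 40 opened peaks of these genes (red, Wilson 95% intervals), all opened peaks (orange) and all closed peaks (blue). The red point lies furthest right for NFI, at 35.0%, and on the side of the opened peaks for AP-1, at 10%.

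Genes of related function gave a background for these counts. Of 15 other secreted airway proteins, 10 had an opened promoter peak and 1 a closed one, and 84.8% of their 46 peaks were opened. Among them were *Scgb1c1*, a further secretoglobin, with 2 opened peaks, and the surfactant genes *Sftpb* and *Sftpd*, with 6 and 5. Of 13 club cell enzymes and membrane proteins, 11 had an opened promoter peak, none a closed one, and 85.1% of their 87 peaks were opened. *Cyp2f2*, the cytochrome that activates naphthalene in club cells, had 5 opened peaks and no closed peak.

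Other mucins were more divided. Of 10 listed, 9 were in the annotation, and 3 of these (*Muc2*, *Muc5ac* and *Muc20*) had an opened promoter peak. Their 13 peaks comprised 7 opened and 6 closed, and 4 of the closed belonged to *Emcn*, which codes for an endothelial sialomucin. Of the other gel-forming mucins of the *Muc5b* cluster, *Muc5ac* had 1 opened peak, *Muc2* had 2 and *Muc6* had no listed peak. *Muc20*, next to *Muc4*, had 3 opened peaks, and none of these 4 genes had a closed peak. Regulators of the secretory lineage carried peaks of both directions: 10 of 16 had an opened promoter peak and 61.9% of 291 peaks were opened. *Spdef*, a driver of goblet cells, had 5 opened peaks and no closed peak, whereas *Foxa2* had 19 opened and 26 closed.

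Markers of other cell types were counted in the same way, including leukocytes and endothelium, which the gates against CD45 and CD31 are meant to remove. Of 6 neuroendocrine markers, 5 had a closed promoter peak and none an opened one, and 49 of 57 peaks were closed. Of 6 club markers, 3 of which are among the 9 genes, 5 had an opened promoter peak and 92.1% of 38 peaks were opened. The opened share was 96.8% of 31 peaks for 4 alveolar type 1 markers, 69.6% of 23 for 4 alveolar type 2 markers, 73.1% of 26 for 4 ciliated markers and 72.2% of 18 for 4 goblet markers, which include *Muc5b*. It was 72.2% of 18 peaks for 4 leukocyte markers, none of which had an opened promoter peak, 23.5% of 51 for endothelium and 43.5% of 23 for fibroblasts. Normal club cells could pass the sort, and their part in the opened peaks was not tested. In bulk chromatin, a site open in more cells and a site more open in each cell cannot be told apart.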

How the data were processed

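ATAC-seq was measured in GFP high and GFP neg SCLC cells. The authors aligned reads to mm10 with Bowtie2 (2.3.4.1), removed duplicates, called peaks with MACS2, merged the peaks of all samples, counted reads per merged peak and compared the groups with DESeq2 (1.28.1). Peaks passed into the 2 deposited lists if the log2 fold change exceeded 1 in size at an adjusted p below 0.001. The signal deposited per peak is the authors' mean over all samples of counts divided by size factors, with no SD or n. Another 5 columns hold the authors' comparison (fold change, standard error, Wald statistic, p and adjusted p) and were not used here, and no column holds a single sample. Whether lanes, or the 2 libraries of 1 mouse, were summed is not given in the sources used here, so the unit averaged (run, library or mouse) is unknown, and the depth per library is unknown.

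Positions are 1-based. Peaks were assigned by centre to the nearest start site of a protein-coding transcript, and promoter means within 1 kb. Motif strings were searched in the central 200 bp, which for narrower peaks reaches past the peak, and base composition used the same window. Python 3.11.15, numpy 2.4.6, pandas 2.3.3, scipy 1.17.1 and matplotlib 3.10.9 were used. Assignment and search were tested on simulated data. Wilson intervals at 95% cover counting error only. All 9 genes were named, with single peaks within 1 kb and, per gene, those highest, widest, nearest and farthest, and others where they complete a locus. The sequence shown for *Muc4* is of its second highest peak, since the highest lies in the first exon. The genes, lists and motifs were chosen with earlier results of these data known. Alternatives were other assignments, merged peaks, limits on mean and width, a wider promoter, whole peaks and leaving out each gene.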

Additional observations from a re-analysis of the deposited data

How the results depend on the processing

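The share of opened peaks stayed between 82.5% and 88.9% where 1 gene at a time was left out. It was 84.6% with start sites of all gene types and 85.4% with peaks within 100 bp merged. With a mean of at least 20 normalized counts required, it was 85.7%. A limit of 100 kb removed no peak, and start sites of all transcripts changed no count, so these 2 settings are no check of the share. In the gene bodies and 10 kb around them, 93.8% of 32 peaks were opened and 2 were closed. This share lies above the interval of the main one, 72.3% to 92.6%. The setting is not a subset of the 47 peaks, as *Muc1* had 6 opened peaks in it, beside 5 in the main assignment. The 7 closed peaks fell to 4 without *Scgb1a1*. In alternatives chosen after seeing the data, distances from the peak edge left all counts as they were, and leaving out peaks inside *Ahnak* or *Flt4* left 3 closed peaks and 92.5% opened. The choice of these neighbours, which hold closed peaks, favours that rise. Without peaks inside any other gene, *Acsf2* at *Chad* included, 30 opened and 3 closed peaks remained, or 90.9% opened. *Chad* then lost all 7 of its peaks. With a promoter of 3 kb, 7 genes had an opened promoter peak, as with 1 kb. This count could not rise, since only 7 of the 9 genes had any opened peak. Among all 21840 protein-coding genes, the number with an opened promoter peak rose from 5818 to 6647. The median of the authors' mean rose to 113 over the 30 opened peaks of at least 200 bp. Searched over the whole peak, the NKX2 string was held by 47.5% of the opened peaks, beside 26.1% of all opened peaks. The shares of the other 7 strings stayed within their intervals, which are wide. FOX rose from 5.0% to 12.5% and GRHL from 2.5% to 5.0%. Both went from below the share in all opened peaks to above it, at 9.50% and 4.83% over whole peaks. Whole peaks are longer than the central window for 30 of the 40 opened peaks and shorter for the rest.

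No paired analysis was possible because the lists hold no value per sample. For the same reason no replicate was left out and no test was run. Stricter limits on the authors' comparison were not tried. Peaks outside the 2 lists were not analysed here, and an unlisted site is not thereby shown to be closed.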
